A study of Homo sapiens with 54 samples.

Results

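The genes described here are 10 genes of epithelial cell junctions and of the keratin skeleton: the claudins CLDN1, CLDN3, CLDN4 and CLDN7, the adhesion molecules EPCAM and CDH1, the splicing regulator ESRP1, and the keratins KRT7, KRT8 and KRT19. They were chosen by symbol from the 25435 genes of the authors' table, with their levels in the resistant and sensitive lines already known. Values that compare those lines therefore describe how the genes were chosen and carry no test. The study used RNA sequencing of 3 pairs of high grade serous ovarian cancer cell lines, each pair derived from 1 patient. In every pair 1 line was sensitive to platinum (PEA1, PEO1, PEO14) and the other resistant (PEA2, PEO4, PEO23). All lines were grown in RPMI1640 with fetal bovine serum and were either untreated or exposed to 80 µM carboplatin, a platinum drug that crosslinks DNA, for 8 or 24 h. The protocol gives the dose in µM while the series text gives it in mM, and the series text describes the control as vehicle harvested at 24 h while the sample labels call it untreated at 0 h. Each of the 18 groups of line and time had 3 replicates, and the experiment was run on 3 different days. Resistance cannot be told apart from other differences between the 2 lines of a pair, among them the passage number, which the labels put far higher for PEA1 than for PEA2.

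Epithelial cells are held together by tight junctions, whose strands are built of claudins, and by adherens junctions built around E-cadherin, the product of CDH1. EPCAM is a surface glycoprotein of simple epithelia, and keratins pair as type I (KRT19, KRT18) and type II (KRT7, KRT8) proteins into filaments anchored at desmosomes. ESRP1 directs epithelial patterns of alternative splicing. The transcription factors ZEB1, ZEB2, SNAI1 and SNAI2 are known to repress CDH1 and other epithelial genes by binding E-box sequences, and serous ovarian carcinomas typically express EPCAM, KRT7, CLDN3 and CLDN4.

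Promoter sequences are shown for CLDN3, CLDN4 and CLDN7, because CLDN3 and CLDN4 are neighbours that did not move together outside PEA1, and CLDN7 moved opposite to CLDN3 under carboplatin. Group means of CLDN3 and CLDN4 had a Pearson correlation of 0.628 over the 17 groups used, and of -0.093 without the PEA1 groups. Each sequence runs from 250 bases before to 50 bases after a start site (RefSeq, build GRCh38.p14), written 5′ to 3′ along the gene. Capitals mark the E-box CAGGTG or its reverse complement CACCTG, both strands having been searched.
CLDN3, chr7:73770221-73770520, minus strand: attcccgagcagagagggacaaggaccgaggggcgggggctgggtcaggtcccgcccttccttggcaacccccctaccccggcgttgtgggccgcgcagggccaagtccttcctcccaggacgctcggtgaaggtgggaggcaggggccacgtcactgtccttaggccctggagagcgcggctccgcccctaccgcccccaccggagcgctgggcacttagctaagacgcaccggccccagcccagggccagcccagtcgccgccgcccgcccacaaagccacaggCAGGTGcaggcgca
CLDN4, chr7:73830746-73831045, plus strand: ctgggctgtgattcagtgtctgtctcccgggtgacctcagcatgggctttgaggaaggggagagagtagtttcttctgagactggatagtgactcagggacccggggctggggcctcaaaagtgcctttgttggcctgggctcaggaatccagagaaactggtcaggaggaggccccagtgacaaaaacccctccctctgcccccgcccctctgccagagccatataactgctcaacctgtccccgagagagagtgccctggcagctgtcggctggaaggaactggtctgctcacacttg
CLDN7, first listed start site, chr17:7263164-7263463, minus strand: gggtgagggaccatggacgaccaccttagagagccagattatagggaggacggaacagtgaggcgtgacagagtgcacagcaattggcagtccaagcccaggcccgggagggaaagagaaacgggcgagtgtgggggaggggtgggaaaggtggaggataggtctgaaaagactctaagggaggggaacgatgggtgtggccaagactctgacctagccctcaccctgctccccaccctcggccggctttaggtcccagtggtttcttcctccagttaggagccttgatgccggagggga
CLDN7, second listed start site, chr17:7262429-7262728, minus strand: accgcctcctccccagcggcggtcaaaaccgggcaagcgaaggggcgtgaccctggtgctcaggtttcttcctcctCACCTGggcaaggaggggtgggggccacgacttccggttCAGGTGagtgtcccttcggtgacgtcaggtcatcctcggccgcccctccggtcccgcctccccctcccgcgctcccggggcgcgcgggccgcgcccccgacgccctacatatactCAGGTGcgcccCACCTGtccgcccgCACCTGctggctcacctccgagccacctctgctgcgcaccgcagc
The CLDN3 promoter held 1 such E-box, starting 36 bases after the start site. The CLDN4 promoter and the first CLDN7 promoter held none, and the second CLDN7 promoter held 5, the nearest starting 9 bases before and 5 bases after the start site. The table listed promoters for 5 of the 10 genes, and those of CLDN1 and KRT8 held no CAGGTG. Among all 35116 promoters of this length, 20.6% held at least 1 CAGGTG or CACCTG. The palindrome AACCGGTT, a form of the motif bound by grainyhead-like factors, was in 0.134% of those promoters and in none of the 5 genes' promoters. These matches are letters in a window and not sites of binding.

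Values are TPM (transcripts per unit of all transcripts, corrected for length) rescaled by a median-ratio factor per library. Of 54 libraries, 12 listed fewer than 12000 genes above 0 TPM (2678 to 11754) and were set aside. The 42 kept listed 12877 to 17133 genes, and the read depth is unknown from TPM. No untreated PEO23 library was kept. A further 3 groups kept 1 library (PEO14 and PEO4 at 24 h, PEA1 without drug), and 3 kept 2 (the 8 h groups of PEA2, PEO1 and PEO4). By correlation over 1000 variable genes, 41 of the 42 kept libraries were most like their own line. The exception was the only kept PEO14 library at 24 h, which was slightly more like PEO23 (r = 0.589) than PEO14 (r = 0.564), so every PEO14 value at 24 h rests on it. Among libraries set aside, untreated PEA1 replicate 3 was more like PEA2 (r = 0.588) than PEA1 (r = 0.062), and it had KRT7 at 814 where kept PEA1 libraries had at most 11. Tests used limma across 18013 genes, on log2(rescaled TPM + 1), with Benjamini-Hochberg adjustment and a threshold of 0.05. A difference on this scale understates the change of low genes.

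**Figure D1:**
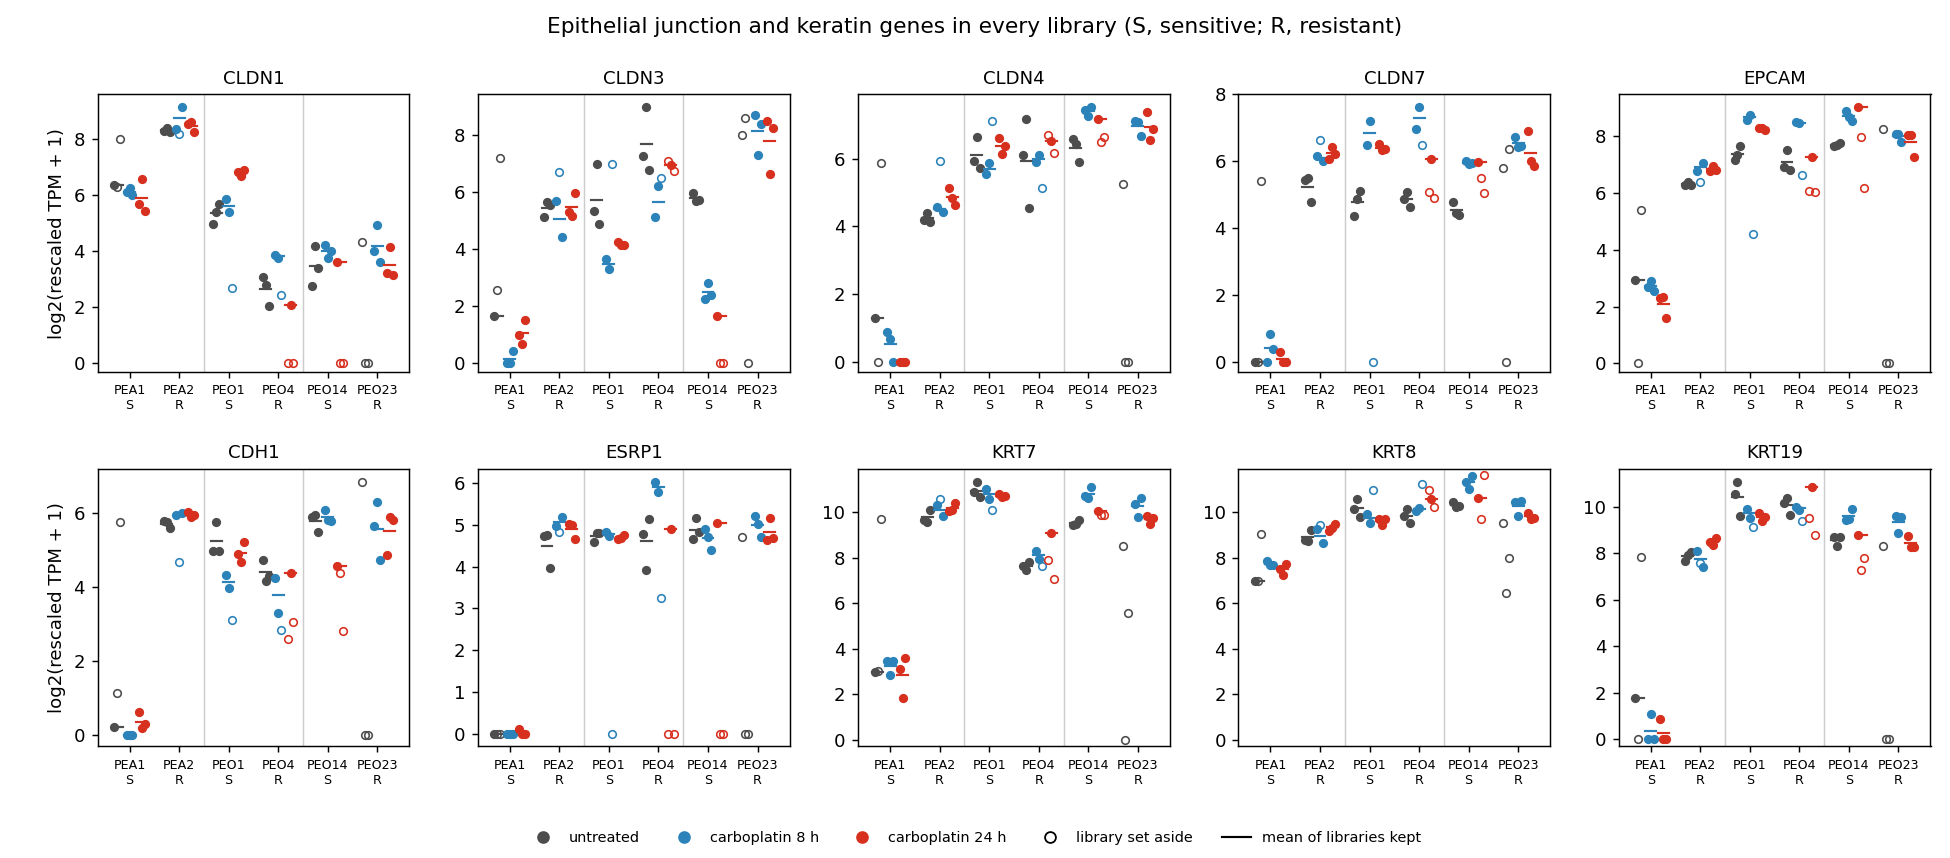
Level of each of the 10 genes in each library, as log2(rescaled TPM + 1), by line, with S for sensitive and R for resistant lines. Filled points are libraries kept (grey untreated, blue 8 h, red 24 h of carboplatin), open points are libraries set aside, and bars are means of kept libraries. Kept PEA1 libraries lie below every other kept library for 9 of the 10 genes, CLDN1 being the exception. The genes were chosen with these levels known, and the share of all genes lying so is not given here.

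PEA1 had low levels of most of the epithelial set, and its resistant partner PEA2 had higher ones. For CLDN3, CLDN4, CLDN7, EPCAM, CDH1, ESRP1, KRT7, KRT8 and KRT19, the kept PEA1 libraries lay below all kept libraries of the other 5 lines. PEA2 libraries lay above PEA1 libraries for all 10 genes at every time. Kept libraries of PEA1 and PEA2 numbered 1 and 3 when untreated, 3 and 2 at 8 h, and 3 and 3 at 24 h. In the fit, all 10 were called higher in PEA2 when untreated, beside 6.32% of all genes, at 8 h, beside 8.98%, and at 24 h, beside 10.2%. None was called lower, beside 5.25%, 7.18% and 8.55% of all genes. These calls and gaps restate the choice of the genes, and the share of all genes with such gaps is not given here. With all 54 libraries, CDH1, ESRP1, KRT7 and KRT19 were the 4 called when untreated. In bulk RNA, fewer cells that express a gene and less RNA per cell cannot be told apart.

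The claudins showed that PEA1 was not without tight-junction transcripts. CLDN1, which forms sealing strands, was at 42.0 to 93.6 rescaled TPM (median 66.7) in the 7 kept PEA1 libraries. It was at 296 to 553 (median 327) in the 8 kept PEA2 libraries, the highest of the 6 lines and overlapping none of them. CLDN1 made up 95.7% to 99.4% of the summed level of the 4 claudins in PEA1. CLDN3, another sealing claudin, was at 2.14 in the untreated PEA1 library. At 8 h it was listed at 0 in 2 PEA1 libraries and was at 0.334 in the other, and at 24 h it was at 0.982, 0.591 and 1.88. In PEA2 it was at 33.4, 48.8 and 45.3 when untreated, at 50.3 and 20.6 at 8 h, and at 38.0, 34.8 and 60.8 at 24 h, well above PEA1 at each time. CLDN4 was at most 1.45 in PEA1, with 4 of 7 libraries listed at 0, against 16.7 to 34.5 in PEA2. CLDN7 was at most 0.774 in PEA1, again with 4 of 7 at 0, against 26.5 to 85.3 in PEA2. The CLDN4 level of PEA2 lay below that of PEO1, PEO14 and PEO23 in every kept library, and overlapped that of PEO4.

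CDH1, which encodes E-cadherin, was at most 0.543 in PEA1 and listed at 0 in 3 of 7 libraries. In PEA2 it was at 47.8 to 64.7, with the highest median of the 6 lines (59.5), although its libraries overlapped those of PEO14, PEO23 and PEO1. EPCAM was at 2.05 to 6.70 in PEA1 and at 76.3 to 133 in PEA2, so PEA1 kept a low level of it. ESRP1 was listed at 0 in 6 of 7 PEA1 libraries and was at 0.0862 in the other. It was nearly flat over the other lines, with medians from 25.8 in PEO1 to 31.3 in PEO4, and no 2 neighbours among those 5 lines differed beyond their spread. Against a group listed at 0, or nearly so, a fitted difference is set by the pseudocount, so levels are given there in its place, with the adjusted p for genes outside the 10.

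The keratins of PEA1 were unevenly affected. KRT7 was at 2.58 to 11 in PEA1 and at 758 to 1356 in PEA2. KRT19 was at most 2.44 in PEA1, with 4 of 7 libraries listed at 0, and at 171 to 407 in PEA2. KRT8 was at 124 to 234 in PEA1, against 404 to 719 in PEA2 (8 h difference 1.23 ± 0.26, not called without PEA2 replicate 1 at 0.92), and its type I partner KRT18 was at 408 to 623 against 998 to 1839. PEA1 thus kept the KRT8 and KRT18 pair while KRT7 accounted for only 1.69% to 5.17% of KRT7 plus KRT8, compared with 63.3% to 69.4% in PEA2. KRT8 and KRT18 overlap on opposite strands in GENCODE 29, KRT8 has 50 named pseudogenes and KRT19 has 5, and KRT7, CLDN7, EPCAM and CDH1 overlap genes on the opposite strand. Since the strand setting of the counting is not stated, levels of these 6 genes are uncertain to that extent.

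PEO1 and PEO4 both expressed the set, and differed in which claudin and which keratin they used. When untreated, 1 of the 10 genes was called higher in PEO4, beside 15.4% of all genes, and 3 were called lower, beside 13%. At 8 h the counts were 2, beside 4.66%, and 2, beside 5.23%, and at 24 h 3, beside 11.9%, and 3, beside 9.68%, with 1 PEO4 library at 24 h. Some of these calls rested on 1 library. At 8 h CLDN1 (-1.79 ± 0.43) was not called without PEO1 replicate 1 (-1.56) or PEO4 replicate 2 (-1.74), and ESRP1 (1.12 ± 0.30) not without PEO1 replicate 1 (1.18) or 2 (1.07) or PEO4 replicate 1 (1.00). At 24 h KRT8 (0.98 ± 0.33) was not called without PEO1 replicate 2 (0.89), and KRT19 (1.30 ± 0.45) not without PEO1 replicate 2 (1.22) or 3 (1.30).

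CLDN1 was at 30.3, 40.5 and 49.6 in untreated PEO1 and at 7.41, 5.95 and 3.17 in untreated PEO4, without overlap, a fitted log2 difference of -2.69 ± 0.35 (SE). At 24 h the PEO1 libraries were at 110, 99.8 and 118 and the PEO4 library at 3.26. CLDN3 ran the other way. In untreated PEO1 it was at 39.3, 126 and 28.0, and in untreated PEO4 at 153, 498 and 107, so the PEO1 library at 126 reached into the PEO4 range. The fitted difference was 1.93 ± 0.51 and was not called without PEO1 replicate 3 (1.5) or without PEO4 replicate 2 (1.28), and it was 2.56 without PEO1 replicate 2. CLDN3 made up 59.4% to 73.2% of the 4 claudins in untreated PEO4, against 17.2% to 42.8% in untreated PEO1. At 8 h it was at 11.6 and 8.74 in PEO1 and at 33.6 and 72.2 in PEO4, a fitted difference of 2.19 ± 0.63. That call was lost without PEO1 replicate 1 (2.37), PEO1 replicate 2 (2.0) or PEO4 replicate 2 (1.65).

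KRT7 was at 1861, 2560 and 1598 in untreated PEO1 and at 197, 172 and 224 in untreated PEO4, a fitted difference of -3.31 ± 0.30. The libraries did not overlap at any of the 3 times. KRT8 (1128, 1538 and 893 against 923, 1129 and 737) and KRT19 (1515, 2158 and 779 against 1154, 1328 and 804) overlapped when untreated. KRT7 was 62.3% to 70.3% of KRT7 plus KRT8 in kept PEO1 libraries and 13.2% to 25.6% in kept PEO4 libraries, and 35.1% in the PEO1 library set aside and 7.48% to 10.4% in the 3 PEO4 libraries set aside. CDH1 was at 30.5, 53.4 and 30.9 in untreated PEO1 and at 25.9, 16.9 and 18.7 in untreated PEO4, a difference of -0.84 ± 0.30 that was not called without PEO1 replicate 2 (-0.58), PEO4 replicate 2 (-0.72) or PEO4 replicate 3 (-0.79). EPCAM, CLDN4, CLDN7 and ESRP1 overlapped between the untreated lines.

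After rescaling, PEO14 and PEO23 differed in CLDN3 and in little else of the set. Without it, CLDN4 (-1.33), EPCAM (-1.6), KRT7 (-1.45) and KRT8 (-1.94) were called lower in PEO23 at 8 h. The median difference of all genes was then -0.414. At 8 h CLDN3 was at 3.81, 5.94 and 4.24 in PEO14 and at 407, 157 and 330 in PEO23, and at 24 h at 2.16 in the PEO14 library and at 353, 98.5 and 298 in PEO23. The lowest PEO23 library lay far above every treated PEO14 library, and the fitted differences were 5.63 ± 0.51 and 6.12 ± 0.72. CLDN3 was the 1 gene of 10 called higher at 8 h, beside 6.83% of all genes, and at 24 h, beside 2.49%. Those called lower were EPCAM (-0.71 ± 0.21) and KRT8 (-1.05 ± 0.23) at 8 h, beside 8.01%, and EPCAM (-1.23 ± 0.30) at 24 h, beside 2.68%. The EPCAM call at 8 h was lost without PEO14 replicate 1 (-0.62), PEO14 replicate 2 (-0.72) or PEO23 replicate 3 (-0.62), and that at 24 h without PEO23 replicate 3 (-0.97). Untreated PEO14 had CLDN3 at 61.5, 49.8 and 52.0. The 3 untreated PEO23 libraries were set aside, with CLDN3 at 251, 382 and 0, and the latter 2 of them listed only 2678 and 2985 genes above 0. The pair can therefore be compared only under carboplatin, where CLDN3 of PEO14 lay below its own untreated libraries.

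**Figure D2:**
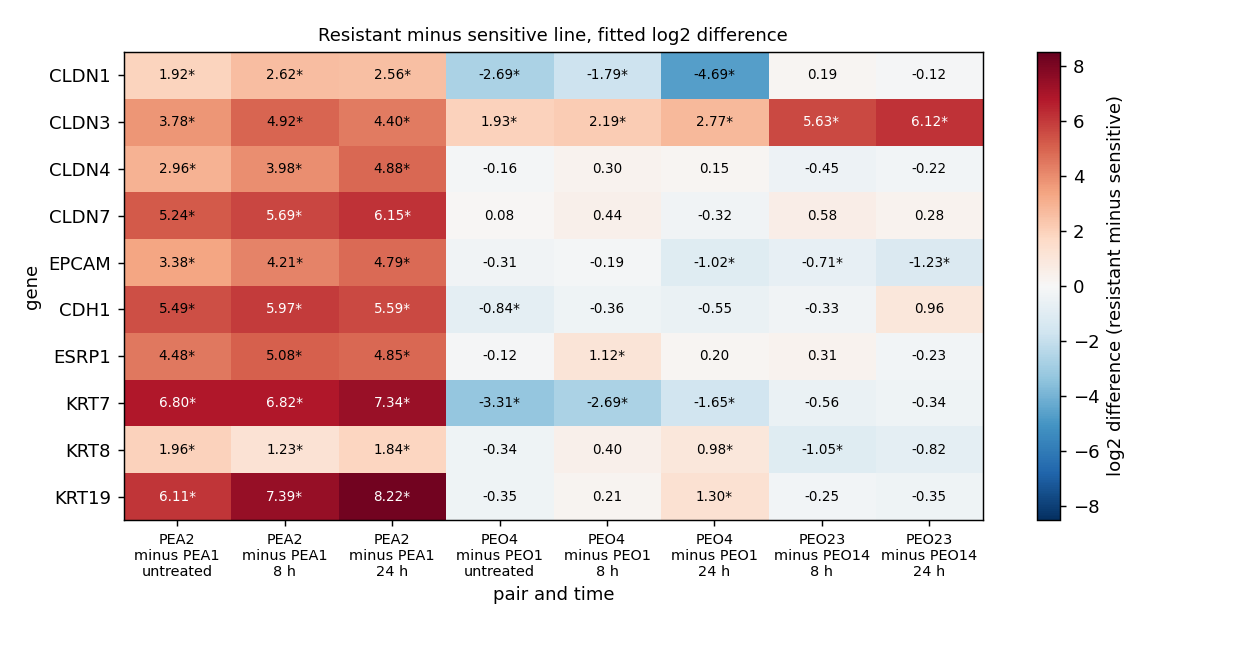
Fitted log2 difference, resistant minus sensitive line, of each gene in each pair and time, with an asterisk where the all-gene threshold was passed; this contrast chose the genes, so the asterisks are a description. Every PEA2 cell is positive, and CLDN3 is the only row positive throughout. Values for genes listed at 0 in PEA1 depend on the pseudocount.

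Across all 3 pairs, CLDN3 was the only gene of the 10 called higher in the resistant line of each pair at 8 h. At 24 h it differed by 2.77 in PEO4 and by 6.12 in PEO23, with 1 PEO4 and 1 PEO14 library. These contrasts chose the genes, and the share of all genes called higher in all 3 pairs is not given here. In PEO4 against PEO1 at 8 h CLDN3 was not called without rescaling (1.88). CLDN4, the neighbour of CLDN3 on chromosome 7, was after rescaling not called in PEO4 against PEO1 or in PEO23 against PEO14 at any time. Without rescaling CLDN4 was called lower in PEO23 at 8 h (-1.33). In the order of line medians, CLDN3 ran PEO23 (314), PEO4 (114), PEA2 (41.7), PEO1 (17.1), PEO14 (5.94) and PEA1 (0.591). Of these neighbours only PEO14 and PEA1 had no overlapping libraries.

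Other epithelial genes were read from lists of 69 tested genes of junctions, desmosomes, keratins and epithelial regulators. In PEA2 against PEA1 at 8 h, 37 were called higher and 3 lower, beside the 8.98% and 7.18% of all genes, with a median log2 difference of 1.12 against 0 for all genes. In PEO4 against PEO1 at 8 h 12 were higher and 9 lower, beside 4.66% and 5.23% of all genes (median -0.06). In PEO23 against PEO14 14 were higher and 11 lower, beside 6.83% and 8.01% (median 0.02).

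Of 20 epithelial regulators, 14 were higher in PEA2 at 8 h, beside 8.98% of all genes, and none lower, beside 7.18%. EHF, an ETS factor of epithelia, was at most 0.277 in PEA1 and at 79.6 to 134 in PEA2 (adjusted p = 2.02e-15 at 8 h). The serine protease matriptase, ST14, was at most 0.917 in PEA1 and at 54.7 to 89.3 in PEA2 (adjusted p = 2.26e-13), and its inhibitor SPINT1 was at most 0.388 and at 46.4 to 88 (adjusted p = 7.24e-14). EHF was lower in PEO4 than in PEO1 (-2.66 ± 0.38, adjusted p = 1e-05) and higher in PEO23 than in PEO14 (3.61 ± 0.31, adjusted p = 9.92e-10). OVOL2, a repressor of mesenchymal genes, was lower in PEO23, at most 1.47, than in PEO14, at 4.63 to 13.1 (adjusted p = 1.73e-06).

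Of 10 desmosome genes, 5 were higher and 1 lower in PEA2 at 8 h, beside 8.98% and 7.18% of all genes. DSP, the desmoplakin that ties keratins to the desmosome, was at most 0.342 in PEA1 and at 36.6 to 73.5 in PEA2 (adjusted p = 7.2e-15). The plaque protein PKP3 was at most 0.812 in PEA1 and at 20 to 40.9 in PEA2 (adjusted p = 2.17e-09). In PEO23 it was at 19.3 to 62.5 against 0 to 1.32 in PEO14 (adjusted p = 4.9e-12), in PEO14 cultures that had CDH1, EPCAM and keratins. PEO4 had higher DSC3 (1.96 ± 0.29, adjusted p = 1.2e-05) and DSC2 (1.70 ± 0.37, adjusted p = 0.00219), the desmosomal cadherins, than PEO1.

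Among 17 tight junction and polarity genes, 10 were higher and 1 lower in PEA2 at 8 h, beside 8.98% and 7.18% of all genes. The gene lower in PEA2 was CLDN16 (-4.45 ± 0.52, adjusted p = 1.12e-07), next to CLDN1 in the genome, which was at 39.6 to 69 in PEA1 and at 0.385 to 1.95 in PEA2. CLDN16 was higher in PEO4 than in PEO1 (4.61 ± 0.57, adjusted p = 9.63e-07), so in both pairs it differed in the direction opposite to CLDN1. The scaffold protein TJP3 was called higher in the resistant line of all 3 pairs at 8 h, as CLDN3 was. The share of all genes so called is not given here. TJP3 was at most 0.278 in PEA1 and at 2.31 to 4.34 in PEA2 (adjusted p = 0.00156). It was higher by 1.62 ± 0.43 in PEO4 (adjusted p = 0.0117) and by 2.07 ± 0.35 in PEO23 (adjusted p = 7.83e-05). Of 9 adherens junction genes, only 3 were higher and 1 lower in PEA2 at 8 h, with a median log2 difference of 0. The lower gene was PVRL2 (-1.59 ± 0.35, adjusted p = 0.00141). CDH3, which encodes P-cadherin and lies beside CDH1, was at most 0.25 in PEA1 and at 11.5 to 25.3 in PEA2 (adjusted p = 4.69e-10). It was lower in PEO4 (-2.64 ± 0.41, adjusted p = 3.12e-05) and in PEO23 (-1.37 ± 0.33, adjusted p = 0.00458).

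Of 13 other keratins, PEO4 had 4 higher and 4 lower than PEO1 at 8 h, beside 4.66% and 5.23% of all genes. KRT4, a type II keratin of stratified mucosa, was at 158 to 529 in PEO4 and at 0.420 to 8.02 in PEO1 (7.20 ± 0.52, adjusted p = 2.19e-11). Its usual partner KRT13 was higher too, at 18.6 to 131 against 0 to 8.02 (adjusted p = 2.69e-06), as was the basal keratin KRT17 (4.36 ± 0.45, adjusted p = 2.95e-08). The line with higher KRT4 was the one with lower KRT7. KRT17 was higher in PEO23 than in PEO14 as well (3.26 ± 0.36, adjusted p = 1.36e-07).

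**Figure D3:**
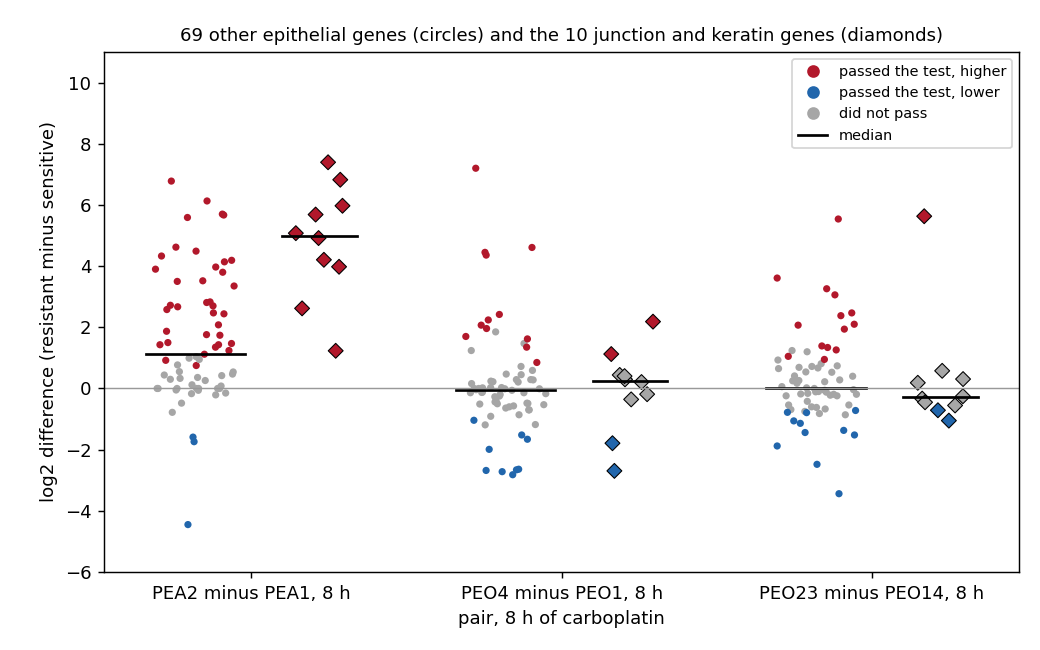
Log2 difference at 8 h, resistant minus sensitive line, of the 69 other epithelial genes (circles) and the 10 junction and keratin genes (diamonds) in each pair, coloured by whether the all-gene threshold was passed, with medians as bars. The 69 genes are centred above 0 for PEA2 minus PEA1 (median 1.12) and near 0 for the other 2 pairs; the highest diamond of PEO23 minus PEO14 is CLDN3.

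The repressors of epithelial genes and mesenchymal counterparts did not all follow the set. ZEB1 was at 15.2 to 20 in PEA1 and at 0.952 to 3.18 in PEA2, and it was at most 0.809 in the other 4 lines. It was lower in PEA2 at 8 h (-2.72 ± 0.22, adjusted p = 6.52e-11), as was ZEB2 (-1.27 ± 0.25, adjusted p = 0.00042). SNAI2 was higher in PEA2 (1.87 ± 0.39, adjusted p = 0.000776). Vimentin, VIM, was at 1560 to 2367 in PEA1 and 52.0 to 107 in PEA2 (-5.00 ± 0.56, adjusted p = 4.1e-08). The receptor kinase AXL was also lower in PEA2 (-1.61 ± 0.37, adjusted p = 0.00192). Of the 6 mesenchymal genes, 2 were thus lower in PEA2 at 8 h, beside 7.18% of all genes, and 3 were higher, beside 8.98%. Those higher were N-cadherin, CDH2 (1.84 ± 0.35, adjusted p = 0.000218), fibronectin, FN1 (4.13 ± 0.41, adjusted p = 3.66e-09), and SPARC (4.07 ± 0.36, adjusted p = 3.33e-10). In PEO4 all 6 were lower than in PEO1 at 8 h, beside 5.23% of all genes, although their CDH1 levels overlapped there. VIM and CDH2 were low in both lines, VIM at most 9.5 in PEO1 and 9.17 in PEO4, and CDH2 at most 4.62 and 1.46. When untreated, 5 of the 6 were lower, beside 13% of all genes, and VIM was not called (-1.3 ± 0.5, adjusted p = 0.0501). At 24 h, with 1 PEO4 library, VIM differed by 0.3 and AXL by -0.34, and the other genes by -1.32 to -5.36. The transcription factor TWIST1 ran the other way and was higher in PEO4 at 8 h (1.95 ± 0.49, adjusted p = 0.00832). In PEO23, SNAI1 (-1.79 ± 0.41, adjusted p = 0.00284), SNAI2 (at most 0.133 against 0.417 to 3.71, adjusted p = 0.000333) and VIM (-4.39 ± 0.50, adjusted p = 1.8e-07) were lower than in PEO14 at 8 h.

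Markers of other cell types differed between some lines. Of 4 endothelial markers, the summed level had a median of 128 and a maximum of 153 in PEA2, and was at most 0.271 in PEA1. Nearly all of it was CDH5, VE-cadherin, with a median of 128 in PEA2 against a median of 0 in PEA1 (adjusted p = 5.62e-14 at 8 h). The receptor KDR was at most 1.45. Of 5 leukocyte markers CD3E was listed at 0 in every kept library, and the sum was at 18.2 to 56.1 in PEA1 and 11.3 to 24.3 in PEA2. CD68 reached 122 in a kept library, whereas CD14 was at most 10.5, PTPRC at most 1.81 and CD79A at most 0.624. The higher leukocyte sums were thus mostly CD68. The 6 fibroblast markers summed to 4.08 to 24.7 in PEA1 and 0.837 to 3.44 in PEA2, with DCN and LUM at 0 in both. The 5 mesothelial markers summed to 22.5 to 52.4 in PEA1 and 57.2 to 83.9 in PEA2. In PEO1 and PEO4 the leukocyte sums were 20.6 to 75.8 and 22.2 to 122, the endothelial sums at most 21.7 and 1.26, and the fibroblast sums at most 11.6 and 8.32. Their mesothelial sums were 20 to 136 and 111 to 863, with CALB2 at 0 in PEO4. Most of the PEO4 sum (median 264) was MSLN, with a median of 181 and a maximum of 734. UPK3B was at most 60.4 and WT1 at most 68.4 there. MSLN had a median of 22.7 and a maximum of 91.8 in PEO1. In PEO14 and PEO23 the leukocyte sums were at most 12 and 11.9, the endothelial sums at most 5.33 and 1.39, and the mesothelial sums at most 18.6 and 33.1. Their fibroblast sums were 15.1 to 71.3 and 2.52 to 9.14, of which COL1A1 was 4.89 to 61.2 in PEO14 and 0.429 to 5.74 in PEO23. DCN was at 0 in PEO14, and COL1A2, COL3A1 and PDGFRB were at 0 in PEO23. The part of these differences in the results was not tested. The ovarian identity factor PAX8 was present in all lines, at 36.2 to 116 in PEA1, whereas SOX17 was listed at 0 in all kept PEA1 and PEO1 libraries. The other identity genes were uneven too. WT1 was at 24.1 to 68.4 in PEO4 and at most 7.94 in the other lines. MUC16 was at most 0.0354 in PEA1 and at 3.0 to 494 in PEO4. MECOM was at most 0.605 in PEO1 and 1.83 in PEO4, and at 34.6 to 63.4 in PEO14.

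The genes were chosen on resistant against sensitive lines, and treated against untreated cultures were tested, with earlier results of these data known. By the labels, the untreated cultures of PEA1, PEA2, PEO1 and PEO4 were at earlier passages than the treated ones (PEO1 at 9 to 11 against 12 to 14), so carboplatin and passage cannot be told apart in these lines. In PEO14 the untreated replicates were at 20, 20 and 20 to 22, and the treated ones at 21, 23 to 25 and 23. These labels overlapped only between untreated replicate 3 and treated replicate 1, so passage is not fully separated there either. Where a group kept 1 library, the error comes from the spread of the other groups, and that library is assumed to vary as they do. After rescaling, CLDN3 fell and CLDN7 and EPCAM rose in PEO1, PEO4 and PEO14 at 8 h, while PEA1 and PEA2 showed no call at that time. Over 5 lines with untreated libraries, 12 of 50 gene-by-line tests were called higher at 8 h (24%, beside 10.4% of all genes) and 4 lower (8%, beside 18.7%). At 24 h, 8 of 50 were higher (16%, beside 8.4%) and 5 lower (10%, beside 15.2%). The 8 h and 24 h comparisons share their untreated libraries. The 69 other epithelial genes were near the background at 8 h, with 9.86% of tests higher and 19.4% lower.

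The number of calls depended on scale and on the choice of libraries. Without rescaling, none of the 50 tests was higher and 15 were lower at 8 h, and 1 was higher and 6 lower at 24 h. In that case the median change of all genes was itself -1.14 for PEO1, -1.12 for PEO4 and -0.60 for PEO14 at 8 h, against -0.15, -0.23 and -0.16 after rescaling. With all 54 libraries none of the 50 tests was called in either direction at 8 h, and at 24 h none was higher and 2 were lower. In replicate 2 at 8 h the factor was 0.261 for PEO1 and 0.264 for PEO4. In these libraries the genes RMRP and RPPH1 took 41.2% and 38.2% of all TPM, against 8.8% to 13.9% in untreated PEO1. As deposited, EPCAM in PEO1 was at 307 and 113 at 8 h (replicates 1 and 2), against 225, 231 and 330 untreated. Rises below are therefore rises relative to the other genes of the same library.

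CLDN3 fell in PEO14 from 61.5, 49.8 and 52.0 untreated to 3.81, 5.94 and 4.24 at 8 h, a log2 change of -3.30 ± 0.51 (adjusted p = 1.19e-05). At 24 h the 1 library, which was slightly more like PEO23, was at 2.16 (-4.13 ± 0.72, adjusted p = 6.99e-05, with the spread of other groups). No treated library overlapped the untreated ones, and each call held when any single other library was left out. In PEO1 it fell by 2.26 ± 0.57 at 8 h (adjusted p = 0.00205) and by 1.57 ± 0.51 at 24 h (adjusted p = 0.0157). Untreated PEO1 replicate 2, at 126, bore much of this: without it the changes were -1.63, still called, and -0.93, not called. In PEO4 CLDN3 fell by 2.0 ± 0.57 at 8 h (adjusted p = 0.00386). That change was -1.35, still called, without untreated PEO4 replicate 2, at 498, and was -1.46 and no longer called without PEO4 replicate 1 at 8 h. At 24 h the PEO4 library, at 121, lay within the untreated range. In PEA2 CLDN3 changed by -0.37 ± 0.57 at 8 h (adjusted p = 0.77) and by 0.04 ± 0.51 at 24 h (adjusted p = 1), and its treated and untreated libraries overlapped. A fit of only the compared groups did not call the PEO1 and PEO4 falls, and with all 54 libraries only PEO14 at 24 h was still called. Without rescaling the 5 CLDN3 calls stayed lower and were larger in size, from -2.12 to -5.20.

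CLDN7 rose in the same lines. In PEO1 it went from 19.6, 28.4 and 33.4 to 88.6 and 147 at 8 h (2.06 ± 0.30, adjusted p = 3.28e-06) and to 90.1, 79.4 and 82.1 at 24 h (1.62 ± 0.27, adjusted p = 2.22e-05). In PEO4 it went from 28.4, 32.9 and 23.9 to 124 and 196 at 8 h (2.42 ± 0.30, adjusted p = 8.87e-08), and the library at 24 h was at 66.8 (1.22 ± 0.38, adjusted p = 0.0207). In PEO14 it went from 26.3, 21.0 and 20.1 to 63.6, 59.1 and 61.1 at 8 h (1.42 ± 0.27, adjusted p = 0.000144) and 62.1 at 24 h (1.44 ± 0.38, adjusted p = 0.00346). In PEA2 it rose at 24 h (1.00 ± 0.27, adjusted p = 0.00811), a call lost without untreated PEA2 replicate 3 (0.77). Without rescaling the CLDN7 change was above 0 in all these cases, from 0.09 to 1.08, and was called only in PEO1 at 24 h.

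The ratio of CLDN7 to CLDN3 within a library does not depend on its scale. In PEO14 it was 0.387 to 0.428 when untreated, 9.95 to 16.7 at 8 h and 28.8 in the library at 24 h. In PEO1 it was 0.225 to 1.19, then 7.65 to 16.8, then 4.82 to 5.07. In PEO4 it was 0.066 to 0.224, then 2.71 to 3.68, and 0.55 in the library at 24 h. Kept treated and untreated libraries did not overlap in these 3 lines. Of the libraries set aside, that of PEO1 at 8 h was at 0.0, with CLDN7 listed at 0, below the untreated ones. Those of PEO4 were at 0.996 at 8 h and at 0.245 and 0.273 at 24 h, and those of PEO14 at 24 h had CLDN3 listed at 0. In PEA2 the ranges of kept libraries were 0.585 to 1.27 untreated, 1.40 to 3.10 at 8 h and 1.22 to 2.45 at 24 h. Only those at 8 h were clear of the untreated ones, and the PEA2 library set aside at 8 h was at 0.952. In treated PEO23, whose CLDN3 was high, the ratio was 0.193 to 0.643. A ratio shows unequal change and not which gene moved.

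**Figure D4:**
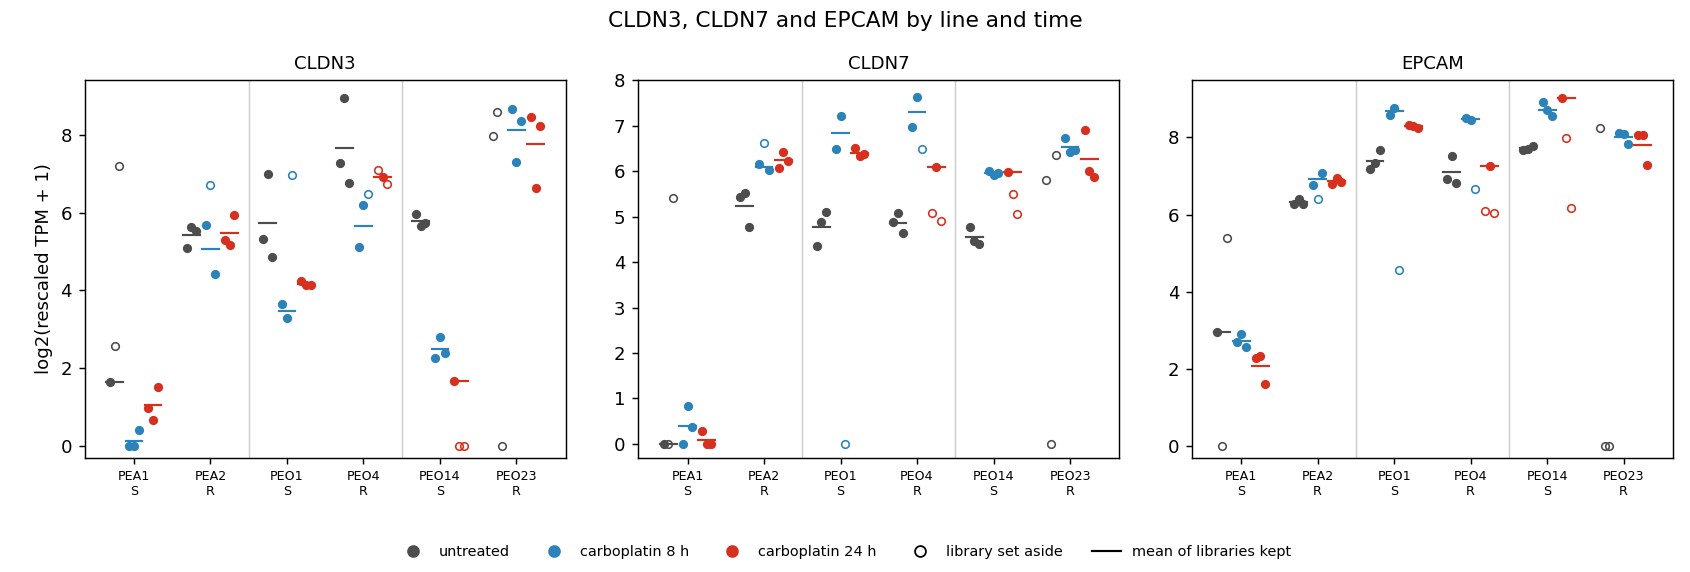
CLDN3, CLDN7 and EPCAM in each library as log2(rescaled TPM + 1), by line and time, with open points for libraries set aside and bars for means of kept libraries. In PEO1, PEO4 and PEO14 the CLDN3 bars are lower and the CLDN7 bars higher at 8 h than when untreated; PEO23 has no kept untreated library.

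EPCAM rose at 8 h in PEO1 (1.27 ± 0.24, adjusted p = 9.21e-05), from 144, 161 and 204 to 381 and 434. It rose in PEO4 (1.39 ± 0.24, adjusted p = 1.38e-05), from 121, 183 and 112 to 363 and 351. In PEO14 it rose from 203, 207 and 218 to 479, 415 and 373 (1.00 ± 0.21, adjusted p = 0.000606). At 24 h it was called higher in PEO1 (0.88 ± 0.21, adjusted p = 0.00153) and PEO14 (1.32 ± 0.30, adjusted p = 0.00107). These 5 changes ran from -0.47 to 0.41 without rescaling and none was called then.

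CDH1 did not follow EPCAM. It fell in PEO1 at 8 h, from 30.5, 53.4 and 30.9 to 19.0 and 14.7 (-1.10 ± 0.34, adjusted p = 0.0103), a call lost without untreated replicate 2 (-0.84) or 8 h replicate 2 (-0.92). In PEO14 at 24 h the library was at 22.9 against 58.4, 60.7 and 44.5 (-1.20 ± 0.43, adjusted p = 0.0295), a call lost without untreated replicate 1 (-1.15) or 2 (-1.12). ESRP1 rose in PEO4 at 8 h, from 26.5, 14.0 and 33.9 to 64.4 and 54.3 (1.30 ± 0.28, adjusted p = 0.000211), and was -0.30 without rescaling. It was not called in any other line or time.

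Keratin calls were scattered. In PEO14 at 8 h KRT7 (1.29 ± 0.30, adjusted p = 0.00158), KRT8 (1.01 ± 0.23, adjusted p = 0.00147) and KRT19 (1.03 ± 0.32, adjusted p = 0.0145) rose together after rescaling. KRT7 went from 683, 702 and 807 to 1650, 1565 and 2184, and none of the 3 was called without rescaling. The KRT19 call was lost without untreated PEO14 replicate 2 (0.90) or 8 h replicate 3 (0.88). CLDN4 rose there too (1.11 ± 0.37, adjusted p = 0.023), while its neighbour CLDN3 fell. The CLDN4 call was lost without untreated replicate 3 (0.91), 8 h replicate 1 (1.09) or 8 h replicate 3 (1.06). KRT7 was called higher in PEO4 at 24 h on 1 library, at 536 against 172 to 224 untreated (1.44 ± 0.43, adjusted p = 0.0164, with the spread of other groups), while the 2 PEO4 libraries set aside at 24 h were at 233 and 131. KRT19 fell at 24 h in PEO1 (-0.85 ± 0.32, adjusted p = 0.0353), a call lost without any 1 of 4 libraries (-0.52 without untreated replicate 2), and in PEA1 (adjusted p = 0.0453), where the 1 untreated library was at 2.44 and the 24 h libraries at 0.836, 0 and 0. CLDN1 rose in PEO1 at 24 h (1.45 ± 0.35, adjusted p = 0.00152) and in PEO4 at 8 h (1.18 ± 0.39, adjusted p = 0.0118), the latter lost without untreated PEO4 replicate 3 (0.88) or 8 h replicate 1 (1.12).

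**Figure D5:**
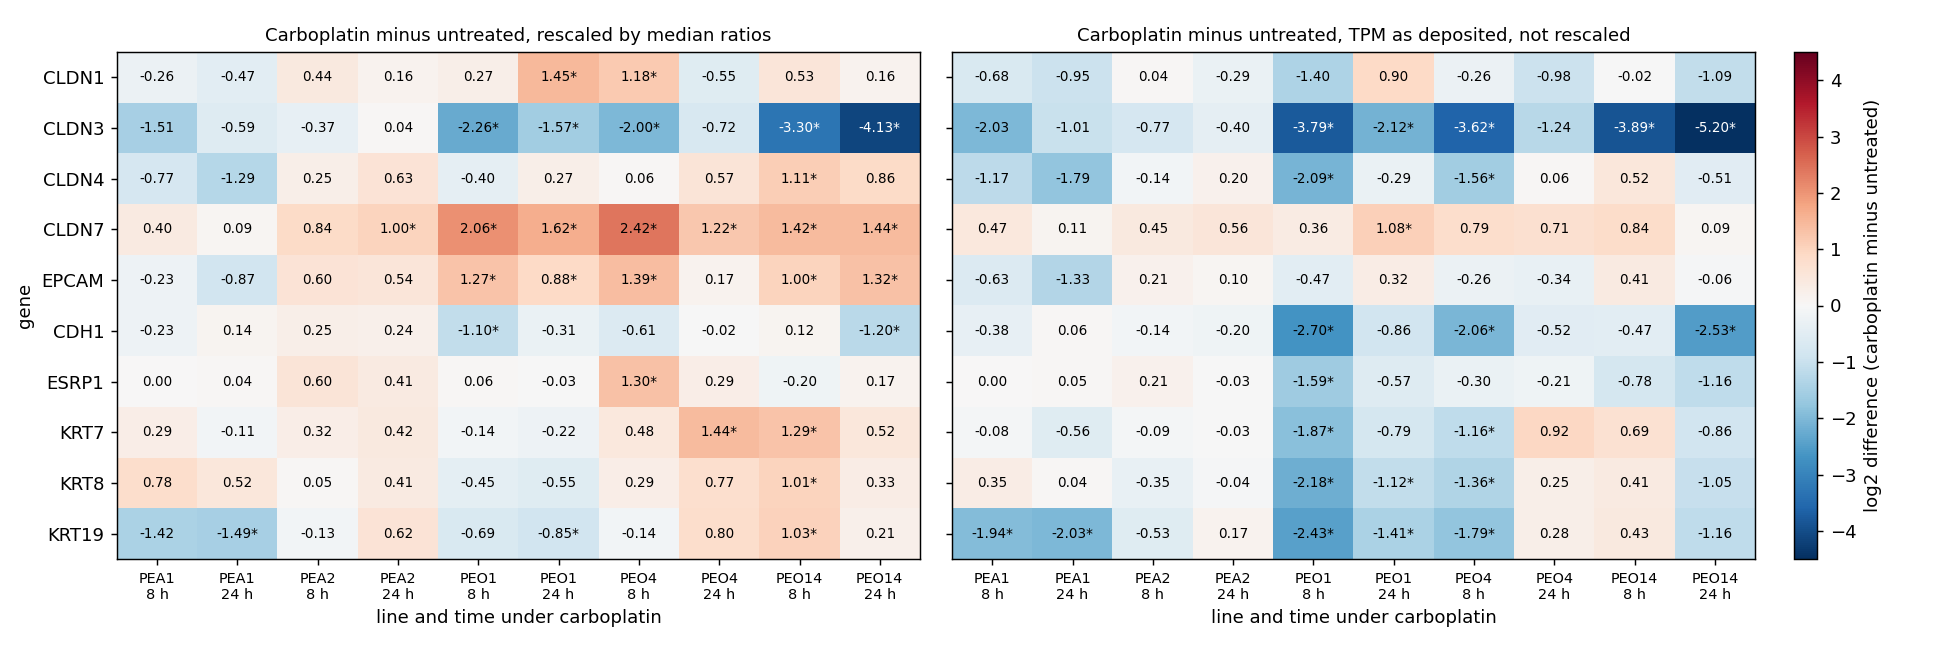
Fitted log2 change under carboplatin against untreated for each gene, line and time, after rescaling (left) and on TPM as deposited (right), with an asterisk where the all-gene threshold was passed. The CLDN3 calls are negative in both panels, whereas the calls above 0 in the left panel are lost in the right one except CLDN7 in PEO1 at 24 h.

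Between 8 h and 24 h, none of 60 tests was called higher, beside 1.4% of all genes, and 3 were lower, beside 1.48%. All 3 were in PEO4, whose 24 h value is 1 library: CLDN1 (-1.73 ± 0.52, adjusted p = 0.0277), CLDN7 (-1.21 ± 0.40, adjusted p = 0.0416) and EPCAM (-1.22 ± 0.32, adjusted p = 0.0135). Each was lost without PEO4 replicate 2 at 8 h (-1.78, -0.88 and -1.24), and CLDN1 also without replicate 1 (-1.68). With the replicate number as a block over 8 h and 24 h cultures, CLDN1 was not called (-1.68, adjusted p = 0.0605), while CLDN7 (-1.53, adjusted p = 0.0432) and EPCAM (-1.19, adjusted p = 0.0343) were. The change under carboplatin differed between the lines of a pair in 1 of 70 tests, with none higher, beside 0.307% of all genes, and 1 lower, beside 0.472%. That was CLDN1 from 8 h to 24 h, which went from 13.6 and 12.6 to 3.26 in PEO4 and from 56.2 and 40.7 to 110, 99.8 and 118 in PEO1 (-2.90 ± 0.65, adjusted p = 0.0292). The call was lost without PEO1 replicate 1 or 2 at 8 h, any PEO1 library at 24 h, or PEO4 replicate 2 at 8 h, with values of -2.67 to -3.13, and with the replicate block over cultures (-2.79, adjusted p = 0.0699). The interaction for CLDN3 between PEO4 and PEO1 was 0.25 ± 0.81 at 8 h (adjusted p = 0.945), so its fall was not shown to differ between them.

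Over the 17 groups with kept libraries, the 45 pairs of the 10 genes had Pearson correlations of group means from -0.56 to 0.968, with a median of 0.855. Without the PEA1 groups the same pairs ran from -0.78 to 0.873 with a median of 0.056. The shared pattern was thus the gap between PEA1 and the other lines. Among 12544 other genes with a group mean of at least 10, the most like each gene over the 17 groups was as follows. KRT18 was nearest to KRT8 (r = 0.959), DSP to CDH1 (r = 0.968), TJP3 to CLDN3 (r = 0.925), the protease inhibitor SPINT2 to CLDN7 (r = 0.965), and KDF1 to KRT19 (r = 0.967). INHBA, which encodes an activin subunit, was nearest to CLDN1 (r = 0.972), ZNF300 to ESRP1 (r = 0.967), GPR110 to KRT7 (r = 0.98), and CYB5R2 to both EPCAM (r = 0.966) and CLDN4 (r = 0.965). The PEA1 groups were included, and CYB5R2, ZNF300, KDF1 and GPR110 had medians of 0 in PEA1. Correlations with these nearest genes are not given without PEA1. All are descriptions over groups that share lines and libraries.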

How the data were processed

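The deposited values are TPM per gene, made by the authors with RSEM as the table's name has it. The submitters' processing notes name bcl2fastq 2.18 and build hg19. Aligner, annotation and strand setting: not given in the sources used here. The labels' protocols give a stranded total RNA kit.

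TPM were divided by median-ratio factors over the 8287 genes above 0 in all 42 libraries kept (factors 0.261 to 1.73). The minimum of 12000 genes above 0 was taken from earlier results of these data. Genes at 1 TPM or more in at least 3 libraries were fitted with limma 3.58.1 in R 4.3.3 (eBayes with trend, 17 groups, 25 residual degrees of freedom, pseudocount 1). The code was tested on simulated data. Dates stood in place of 28 symbols and 2 symbols were duplicated.

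The members and lists were chosen with earlier results of these data known. From each list, up to 3 called genes with the largest 8 h difference per pair could be named, and all genes of the transcription factor, mesenchymal and ovarian identity lists. For each gene the 2 nearest others by correlation of group means could be named. The labels give same-numbered libraries of a line 1 passage at both treated times (18 of 18), so the number was taken to pair those times, although same-numbered libraries correlated over 0.1 in only 2 of 10 pairs (-0.247 to 0.411). Alternatives changed the libraries, scaling, pseudocount, filter, groups fitted and replicate block.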

Additional observations from a re-analysis of the deposited data

Results flagged for a closer look

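Untreated PEA1 replicate 3, a library set aside for listing 8635 genes above 0, held 7 of the 10 genes at over 5 times the highest kept PEA1 library. Its rescaled TPM were 814 for KRT7, 226 for KRT19, 146 for CLDN3, 57.4 for CLDN4, 53.7 for CDH1, 41.2 for CLDN7 and 41.0 for EPCAM. The highest kept PEA1 values were 11, 2.44, 2.14, 1.45, 0.543, 0.774 and 6.70. ESRP1 was listed at 0 in this library. No group comparison of kept libraries used it.

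The CLDN1 change from 8 h to 24 h differed between PEO4 and PEO1 by -2.9 on the log2 scale (limma adjusted p = 0.0292), with 1 PEO4 library at 24 h, and by -2.79 with the replicate block over cultures (adjusted p = 0.0699).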

How the results depend on the processing

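Counts are of calls, higher and lower. For resistant minus sensitive lines the 10 genes gave 11 and 3 untreated, 13 and 4 at 8 h, and 14 and 4 at 24 h. For 8 h minus untreated they gave 12 and 4, for 24 h minus untreated 8 and 5, for 24 h minus 8 h 0 and 3, and for the change between lines 0 and 1. The other epithelial genes gave 63 and 23 at 8 h. With all 54 libraries these were 4 and 1, 9 and 0, 9 and 2, 0 and 0, 0 and 2, 0 and 0, 0 and 0, and 30 and 3. EPCAM in PEO23 minus PEO14 at 24 h then turned to 0.07, and at 8 h in PEO1 CLDN7 turned to -0.22 and EPCAM to -0.10. Without rescaling, resistant minus sensitive gave 2 lower at 24 h, 8 h minus untreated 0 and 15, 24 h minus untreated 1 higher, 24 h minus 8 h 4 and 0, the change between lines 0 lower, and the other epithelial genes 41 higher. EPCAM then turned in PEO1 at 8 h (-0.47), PEO4 at 8 h (-0.26) and PEO14 at 24 h (-0.06), as did CLDN1 (-0.26) and ESRP1 (-0.30) in PEO4 at 8 h. Upper-quartile scaling gave 5 lower untreated and 7 lower at 8 h minus untreated. A pseudocount of 0.1 gave 5 higher at 24 h minus untreated, 1 at 24 h minus 8 h and 1 in the change between lines, and no filter also gave 1 there. Fitting only the compared groups gave 0 lower between lines at 8 h, 7 lower other epithelial genes, 2 lower at 8 h and 3 lower at 24 h minus untreated, 0 lower at 24 h minus 8 h and 1 higher in the change between lines. The cause of these shifts was not tested.

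Same-numbered libraries correlated from -0.09 to 0.265 between the lines of a pair (7 of 13 pairs over 0.1), and no label ties the numbers across lines, so they were not taken to pair lines. With a replicate block over both lines, 14 gene-by-pair calls were higher and 1 lower at 24 h, where EPCAM and KRT7 in PEO4 minus PEO1 and EPCAM in PEO23 minus PEO14 lost their calls. With a replicate block over cultures, 2 were lower at 24 h minus 8 h, and CLDN1 lost its call there in PEO4 and in the change between PEO4 and PEO1.

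On leaving out 1 replicate number in all lines or 1 library, the ranges of higher and lower calls were 0 to 11 and 2 to 3 untreated, 10 to 13 and 1 to 4 at 8 h, and 10 to 14 and 1 to 4 at 24 h. The 0 came from replicate 1, which removes the only kept untreated PEA1 library. They were 6 to 13 and 3 to 6 for 8 h minus untreated, 3 to 9 and 0 to 6 for 24 h minus untreated, 0 and 0 to 4 for 24 h minus 8 h, 0 to 2 and 0 to 2 for the change between lines, and 43 to 66 and 11 to 28 for the other epithelial genes. TPM give no depth, so whether a gene listed at 0 was absent or too shallowly read cannot be told. Of 82 called values of single genes, 25 kept their call with all 54 libraries, 50 without rescaling, 57 with only the compared groups, 72 with the smaller pseudocount, and 80 with upper-quartile scaling.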

Other observations

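The untreated PEO23 libraries were in no comparison. Replicate 1, listing 11151 genes above 0, had CLDN3 at 251, EPCAM at 303, CDH1 at 115, ESRP1 at 25.2, KRT7 at 358, KRT8 at 734 and KRT19 at 322. Its profile was more like PEO14 (r = 0.372) than treated PEO23 (r = 0.211), whereas its CLDN3 lay above the untreated PEO14 libraries, at 61.5, 49.8 and 52.0.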
